A study of Homo sapiens with 8 samples.

Results

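Between gut-on-chip cultures, Caco-2 cells differed in genes of cell division, in interferon-stimulated genes and in a smaller set of epithelial genes, and the 162 probe sets that met a rule on this spread are described here. They were selected on measured values: among the probe sets paired with 1 gene symbol, those whose mean level over the 4 gut-on-chip arrays was above 5 on the log2 scale, whose SD among these arrays was 0.5 or more and whose SD among the 4 Transwell arrays was below 0.25. The rule took 162 of 8727 such probe sets above level 5, which is 1.86% of them and 162 of the 53617 probe sets of the arrays in all. They stand for 156 of the 22392 genes with such a probe set, because 7 of them were copies of the PSMB8 probe set with identical values. These copies count as 1 gene here, but the counts of members below keep all 7. Because both spreads went into the choice, the chip-to-chip differences below are a description with no test.

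The series holds 8 arrays of Caco-2 cells (HTB-37), a cell line from a human colon carcinoma that takes on features of small intestinal enterocytes when it is kept confluent. In both groups RNA was taken after 21 days, from cells at passages 29 to 45 that had been seeded at 75000 cells per cm2 in the supplemented medium DMEM+. The 4 gut-on-chip cultures grew on a membrane in a microfluidic device under a continuous flow of 100 µL/h, with a shear stress of about 0.002 dyne/cm2, whereas the 4 Transwell cultures grew without flow on inserts of 1.12 cm2. One untreated cell line served in all samples, passages were not assigned to samples, and neither the labels nor the methods state that the 4 chips came from separate experiments, so the spread between them may be biological or technical. The authors made the log2 levels with RMA. Each chip is called here by its replicate number in the labels, and these numbers have no order.

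Enterocyte markers were checked before the members. Of 12 absorptive enterocyte markers, 9 were above level 5 in the gut-on-chip, with VIL1 of the brush border at 9.20, 9.82, 9.64 and 9.52 in replicates 1 to 4, although FABP2 and SLC5A1 were below 4 in every chip. The summed level of these markers was 11.97, 12.08, 12.32 and 11.78 in the chips and 13.37 to 13.43 on the inserts. Lists of other cell types were dim in part. MUC2 and ATOH1 of goblet cells, PTPRC and CD3E of leukocytes, and all 5 erythroid and all 6 tuft cell markers were below 4 in every chip, and none of 10 enteroendocrine markers was above 5. Markers above 5 were 3 of 12 for goblet cells (AGR2, TFF1 and ZG16), 2 of 6 for Paneth cells (LYZ and PLA2G2A), 2 of 13 for squamous or urothelial epithelium (UPK1B and UPK2), 2 of 12 for fibroblasts and smooth muscle (LUM and TAGLN) and 1 of 8 for endothelium (ESAM). The summed level of the goblet markers was 10.08 to 10.55 in the chips and 10.89 to 10.99 on the inserts. The whole leukocyte list had 4 of 12 markers above 5, namely CD14, CD68, CSF1R and LYZ, and its summed level was 10.76 to 10.97 in the chips and 10.69 to 10.81 on the inserts. Array medians were 2.46 to 2.48 in the chips. The part of other cell types in the results was not tested.

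Dividing cells make the proteins of DNA replication in S phase and those of the spindle and of chromosome separation shortly before mitosis, and Caco-2 cells leave the cell cycle as they differentiate. Genes of the second kind often carry in their promoters a CCAAT box and a short element called CHR, which is bound by the complex that holds them silent in resting cells. Interferon-stimulated genes are switched on when interferon or sensors of foreign RNA activate STAT and IRF factors, which bind the interferon-stimulated response element, and many of their products act against viruses. The enterocyte brush border carries the hydrolases, transporters and channels through which the gut takes up nutrients and moves salt and water.

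The promoters of 3 mitotic and 3 interferon-stimulated members are shown, since genes of these groups form both main patterns among the chips. Each run is the 150 bases before the annotated start of the gene in the RefSeq promoters of build GRCh38.p14, written 5′ to 3′ along the gene. Capitals mark the matches. In the interferon-stimulated genes IFIT1 (chr10:89392473-89392622 on the plus strand), ISG15 (chr1:1013347-1013496 on the plus strand) and IFI6 (chr1:27672193-27672342 on the minus strand) they mark GAAANNGAAA on either strand, 2 matches each, which in ISG15 overlap.
IFIT1: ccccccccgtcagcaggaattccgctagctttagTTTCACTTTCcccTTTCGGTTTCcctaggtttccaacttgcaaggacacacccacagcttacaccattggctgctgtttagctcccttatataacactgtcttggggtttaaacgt
ISG15: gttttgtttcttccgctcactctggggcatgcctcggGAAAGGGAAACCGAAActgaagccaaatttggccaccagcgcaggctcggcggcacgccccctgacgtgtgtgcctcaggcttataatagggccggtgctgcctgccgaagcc
IFI6: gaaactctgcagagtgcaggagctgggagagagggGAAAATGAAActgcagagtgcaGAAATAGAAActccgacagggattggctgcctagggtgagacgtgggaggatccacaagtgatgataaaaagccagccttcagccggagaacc

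In the mitotic genes MKI67 (chr10:128126424-128126573 on the minus strand), CCNB2 (chr15:59104996-59105145 on the plus strand) and PLK1 (chr16:23678739-23678888 on the plus strand) the capitals mark TTTGAA, the letters of the CHR element, searched on either strand.
MKI67: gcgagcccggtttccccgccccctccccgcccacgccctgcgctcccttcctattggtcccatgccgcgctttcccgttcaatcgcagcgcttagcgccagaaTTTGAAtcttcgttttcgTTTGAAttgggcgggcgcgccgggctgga
CCNB2: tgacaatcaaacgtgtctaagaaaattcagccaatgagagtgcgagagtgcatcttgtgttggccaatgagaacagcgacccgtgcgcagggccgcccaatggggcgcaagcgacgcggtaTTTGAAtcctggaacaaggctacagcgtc
PLK1: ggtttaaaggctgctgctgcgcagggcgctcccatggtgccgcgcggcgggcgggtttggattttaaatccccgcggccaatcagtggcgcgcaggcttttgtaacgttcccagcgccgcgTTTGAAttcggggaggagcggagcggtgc

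A promoter was at hand for 111 of the 156 member genes, and where a gene had several starts the one listed before the others was taken. Over the 250 bases before the start, GAAANNGAAA was found in 7 of the 12 interferon-stimulated members, against 3.07% of all 27305 promoters and 2.40% of the 6788 promoters of genes above level 5. TTTGAA was found in 14 of the 28 mitosis and spindle members, against 13.6% of all promoters and 8.59% of those above level 5. CCAAT was found in 22 of these 28, against 33.0% of all promoters and 35.8% of those above level 5. A match of these letters is a description and shows no binding.

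By the choice of the members, the chips differed more than the inserts. SD among the chips was 0.50 to 1.31 in the members, with a median of 0.59, while their SD among the inserts had a median of 0.12. Over all 8727 probe sets above level 5 the median SD was 0.16 among chips and 0.10 among inserts. With the roles of both systems exchanged, the same limits took 7 of 8621 probe sets, or 0.0812%, among them KRT23, which was at 5.50, 4.32, 5.72 and 5.36 on the inserts and 7.16 to 7.35 in the chips.

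Replicate 1 stood apart most often. Each member was assigned to the chips on either side of the largest gap between its 4 sorted levels, and replicate 1 alone was on the low side in 61 members and on the high side in 20, of which 7 were the PSMB8 copies. Of all probe sets above level 5, 12% had replicate 1 alone low and 12.6% had it alone high, so the low side was more common among the members than in the background and the high side was not. Replicates 2 and 4 lay together above 1 and 3 in 30 members, or 18.5%, against 6.61% of the background. Replicate 2 alone was low in 12, or 7.41%, which was below the 9.98% of the background. The largest gap was at least 0.5 of the range in 51 of the 61 members with replicate 1 low. It was so in only 14 of the 30 with replicates 2 and 4 high. No other split held more than 7 members. Of the squared deviations of all members from their chip mean, 43.3% belonged to replicate 1, 26.4% to replicate 2, 9.86% to replicate 3 and 20.4% to replicate 4. With 1 probe set per gene the share of replicate 1 was 42.8%. Replicate 1 was the lowest chip in 102 of the 162 members, against 26.4% of the background. Over all 8727 probe sets the closest chips were replicates 2 and 4, at a distance of 23.7, and the farthest were 1 and 2, at 33.9. Each distance was the root of the summed squared differences in log2 level. Without the limit on level this ranking changed. Replicates 3 and 4 were then closest, at 106.0, with 2 and 4 at 107.3. The farthest were 2 and 3, at 120.0, with 1 and 2 at 110.3.

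**Figure D1:**
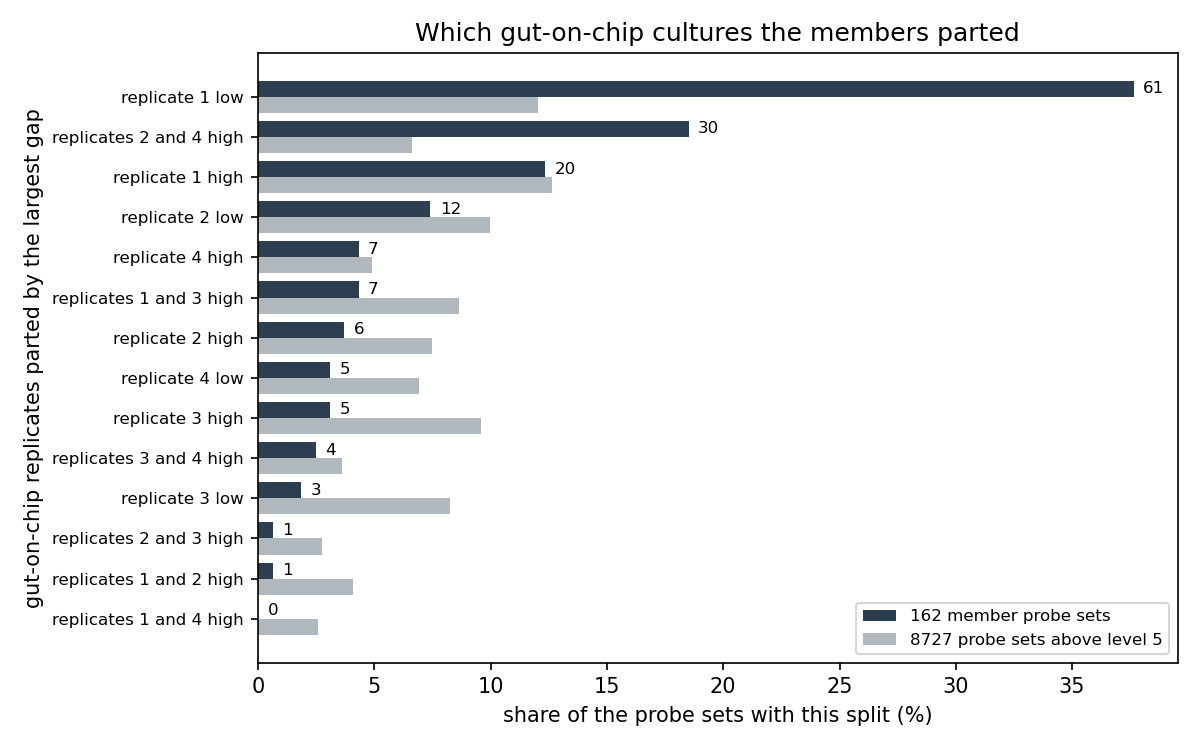
Share of probe sets (%) in each of the 14 ways in which the largest gap can part the 4 gut-on-chip arrays, for the 162 members (dark bars, with their number) and for all 8727 probe sets above level 5 (grey bars). Replicate 1 low (61 members) and replicates 2 and 4 high (30 members) exceed their grey bars by the widest margins.

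Genes of mitosis and the spindle made up the largest named group and moved as a block between chips. Of 45 measured genes of the list, 43 were above level 5 and 31 were members, against 1.86% of the background. All 31 were lowest in replicate 1, and 27 of them had the order replicate 2, then 4, then 3, then 1, while the other 4 had replicate 4 ahead of 2. The largest gap set replicate 1 low in 18 of the 31 and replicates 2 and 4 high in 11. These splits thus cut much the same order at different places. Ranges of the 31 between the highest and lowest chip were 1.06 to 1.80, with a median of 1.28. In this whole-culture RNA, fewer dividing cells and less RNA of these genes per cell cannot be told apart.

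The proliferation antigen MKI67 was at 7.25, 9.05, 7.74 and 8.59 in gut-on-chip replicates 1 to 4 and at 7.70, 7.48, 7.42 and 7.41 in Transwell replicates 1 to 4. The mitotic cyclin CCNB1 was at 6.60, 8.11, 7.39 and 7.86 in the chips and at 6.62, 6.52, 6.41 and 6.49 on the inserts. The kinesin of cell separation KIF20A was at 7.01, 8.79, 7.95 and 8.26 and 7.32, 7.06, 7.56 and 7.33, in the same order of arrays. In each of these genes replicates 2 and 4 were high and replicate 1 was low. Replicate 1 was within the range of the inserts for CCNB1 and below it for MKI67 and KIF20A, so the systems overlapped. TOP2A, the topoisomerase that untangles chromosomes, was at 8.59, 10.05, 9.22 and 9.88 in the chips and 9.04, 9.0, 8.92 and 9.0 on the inserts. CENPF, a kinetochore protein, was at 5.76, 7.55, 6.36 and 6.95 and 6.20, 6.04, 5.81 and 6.02, and had replicate 2 above all other chips. ASPM, of the spindle pole, was at 5.32, 7.01, 5.85 and 6.60 and 6.56, 6.28, 6.32 and 6.38. For ASPM the inserts lay between replicates 2 and 4 on one side and replicates 1 and 3 on the other.

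CDK1, PLK1, UBE2C and CDC20 had the order 2, 4, 3, 1. CDK1, the kinase that starts mitosis, was at 7.29, 8.56, 7.91 and 8.29 in the chips and 7.37, 7.28, 7.23 and 7.36 on the inserts. PLK1, a kinase of spindle assembly, was at 8.38, 9.60, 9.06 and 9.43 and 8.59, 8.51, 8.38 and 8.41. UBE2C and CDC20 serve the complex that marks cyclins for destruction. UBE2C was at 6.19, 7.75, 7.42 and 7.55 in the chips and 6.43, 6.08, 6.46 and 6.32 on the inserts, and CDC20 was at 7.06, 8.30, 7.81 and 7.98 and 6.72, 6.63, 6.5 and 6.29. All 4 chips were above all 4 inserts for CDC20 and 4 other mitotic members, while the ranges overlapped for 26, and 34.7% of the background had all chips above all inserts. The Transwell mean was nearer to the chips on the low side of the gap in 28 of the 31, against 5175 of the 8727 probe sets of the background.

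**Figure D2:**
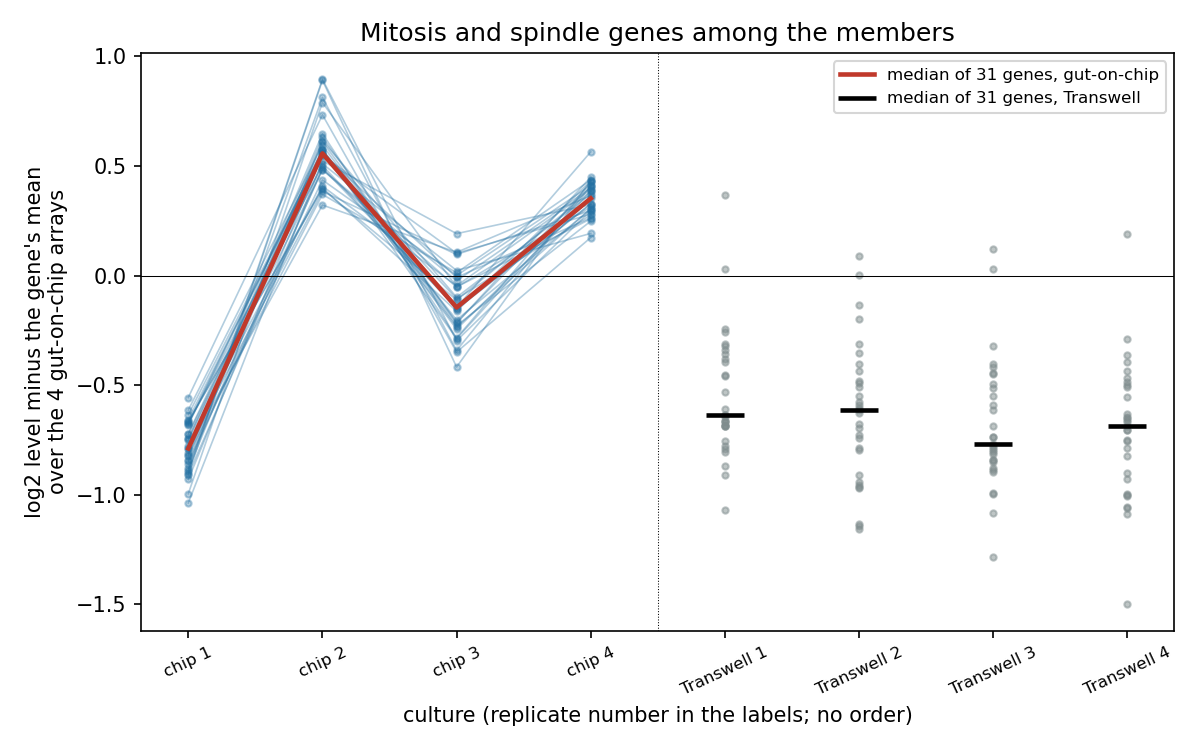
Log2 level minus the mean of the 4 gut-on-chip arrays for the 31 mitosis and spindle members, by array (blue, gut-on-chip, joined per gene; grey, Transwell), with medians in red and black. Replicate 1 is the lowest chip for every gene and replicate 2 the highest for 27 of 31.

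Mitotic genes outside the rule had the same shape. Among the 12 list genes above level 5 that were no members, the median deviation from the chip mean was -0.43, 0.41, -0.09 and 0.16 in replicates 1 to 4, against -0.72, 0.50, -0.11 and 0.30 over all 43 and values within 0.01 of 0 over all genes above level 5, once rounded. KIF15, TTK and CDC25B missed the limit on SD by under 0.01. Of the 43 genes, 41 were lowest in replicate 1 and 39 highest in replicate 2, which was the highest chip in 24.6% of the background. Replicate 1 was the lowest chip in 35 of the 46 mitosis and S phase genes above level 5 that were no members.

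Genes of DNA replication also had replicate 1 low, with replicate 4 at the top in most of them. Of 38 list genes above level 5, 4 were members, against 1.87% of all genes above level 5. The list had median deviations of -0.37, 0.23, -0.13 and 0.28. Replicate 1 was lowest in 29 of the 38, against 26.4% of the background, and replicate 4 highest in 27, against 18.8%. MCM10, which helps to start replication, was at 5.93, 7.57, 6.80 and 7.81 in the chips and 6.49, 6.5, 6.06 and 6.10 on the inserts. TK1, the thymidine kinase, was at 7.25, 8.70, 8.32 and 8.63 and 7.81, 7.73, 7.71 and 7.57, RRM2, a subunit of the enzyme that makes deoxynucleotides, at 6.90, 8.02, 7.75 and 8.03 and 7.16, 6.95, 6.69 and 6.79, and CDT1, which licenses origins, at 6.43, 7.44, 6.68 and 7.47 and 7.17, 7.03, 6.76 and 6.85. In each of these genes replicates 2 and 4 were the upper pair and the inserts overlapped the chips. Over both lists of cell division, the order 2, 4, 3, 1 occurred in 43 of 81 genes above level 5, against 6.47% of all genes.

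Histones, which are made while DNA is copied, also had replicate 1 low and replicate 4 high in most genes. The histone H2BC14 had the widest range of any member in which replicate 1 was alone low, at 6.83, 8.65, 8.5 and 9.26 in the chips and 7.87, 7.63, 7.60 and 7.5 on the inserts. H1-5 was at 6.75, 7.65, 7.75 and 7.87 and 7.85, 8.10, 7.84 and 7.81, and H2BC5 at 5.89, 6.10, 6.74 and 7.02 and 5.31, 5.41, 5.39 and 5.36. All had replicate 1 lowest and replicate 4 highest, and H2BC5 was above the inserts in all chips. H2BC14 had the order 4, 2, 3, 1, as did 3 of the 4 DNA replication members, whereas H1-5 and H2BC5 had 4, 3, 2, 1. Of 16 histone genes above level 5, 12 were lowest in replicate 1, against 26.4% of the background, and 12 highest in replicate 4, against 18.8%. Their median deviations were -0.30, -0.02, 0.18 and 0.34. Because histone genes are near-identical copies, their probe sets may share signal.

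Transcription factors that drive division were among the members too. MYC, which promotes growth and entry into the cycle, was at 6.41, 7.60, 7.08 and 7.57 in the chips and 6.70, 6.69, 6.63 and 6.5 on the inserts. FOXM1, an activator of mitotic genes, was at 6.41, 7.69, 6.97 and 7.55 and 7.04, 6.99, 7.0 and 6.86, and was chosen for mention after its values were seen. Both were lowest in replicate 1 and highest in replicate 2. MYC was the only member among 22 immediate-early genes above level 5, whose median deviations were 0.13, -0.19, 0.06 and 0.00.

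Other genes of cell division were members without being in a list. SKA3, which ties chromosomes to the spindle, was at 6.73, 8.05, 7.39 and 8.10 in the chips and 6.99, 6.94, 7.12 and 6.96 on the inserts. HJURP, NCAPG, GTSE1, KNL1, PBK, MELK, MYBL2 and E2F8 are further such genes, named after their values were seen. NCAPG, a condensin subunit, was at 6.92, 8.39, 7.77 and 8.24 and 7.07, 6.83, 7.05 and 6.64, and HJURP, which loads the centromeric histone, at 5.67, 7.22, 6.40 and 6.97 and 6.16, 5.98, 6.13 and 5.75. Replicates 2 and 4 were the upper pair in all of these.

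Interferon-stimulated genes varied as widely as those of mitosis, but along another axis. Of 63 measured genes of the list, 40 were above level 5 and 14 were members, against 1.87% of all genes above level 5. All 14 had replicate 4 highest and replicate 2 lowest, and 13 had the order 4, 3, 1, 2, which 2.51% of all genes above level 5 showed. For IFI27 and OAS2 the limit on level was met only through replicate 4, since the other chips had means of 4.41 and 4.61. Their ranges were 1.19 to 3.11, with a median of 1.92. Replicate 4 was the highest chip in 18.8% of all probe sets above level 5 and replicate 2 the lowest in 27.9%.

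IFIT1, which binds foreign RNA, had the widest range of all members, at 5.95, 4.21, 6.46 and 7.33 in gut-on-chip replicates 1 to 4 and 3.94, 3.52, 3.81 and 3.83 in Transwell replicates 1 to 4. IFI27 was at 4.47, 4.18, 4.57 and 6.79 in the chips and 2.44, 2.39, 2.53 and 2.44 on the inserts. OAS2, an oligoadenylate synthetase that signals the destruction of RNA, was at 4.58, 3.78, 5.48 and 6.57 and 2.59, 2.55, 2.59 and 2.76. Every chip was above every insert for these genes, and the lowest chip, replicate 2, came nearest to the inserts. On the inserts IFI27 and OAS2 lay near the array medians, which were 2.46 to 2.48 in the chips. Their small SDs there therefore do not show steady expression. The antiviral GTPase MX1 was at 5.31, 4.86, 5.65 and 7.21 in the chips and 4.37, 4.47, 4.25 and 4.38 on the inserts. IFI6, the brightest member of the list, was at 9.64, 8.91, 10.56 and 11.29 and 7.35, 7.22, 6.92 and 6.97. In MX1 and IFI27 replicate 4 stood alone, whereas IFI6 was high in replicates 3 and 4.

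IFIH1 and RIGI, which are sensors of foreign RNA, were the only members of this list that overlapped with the inserts. IFIH1 was at 6.64, 5.41, 6.71 and 7.44 in the chips and 5.65, 5.66, 5.68 and 5.67 on the inserts. RIGI was at 6.94, 6.61, 7.38 and 8.44 and 6.93, 6.94, 6.76 and 6.82. Replicate 2 was below all inserts for both sensors, and the other chips were above all inserts for IFIH1. The remaining 12 members were above the inserts in all chips, as was 34.7% of the background. ISG15, UBE2L6 and HERC5 encode a ubiquitin-like protein and enzymes of its conjugation. The ubiquitin-like ISG15 was at 7.16, 6.33, 7.45 and 7.81 and 5.12, 5.07, 5.32 and 5.07. Its E2 enzyme UBE2L6 was at 5.26, 4.75, 5.86 and 5.94 and 4.38, 4.58, 4.46 and 4.25, and its ligase HERC5 at 6.77, 5.36, 6.88 and 7.35 and 4.01, 3.94, 4.36 and 4.01. The list was completed by IFIT2, IFIT5, OAS1 and IRF9, the DNA-binding subunit of the factor that interferon activates. IRF9 was at 6.51, 5.91, 6.67 and 7.32 in the chips and 5.20, 5.20, 5.07 and 5.36 on the inserts.

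**Figure D3:**
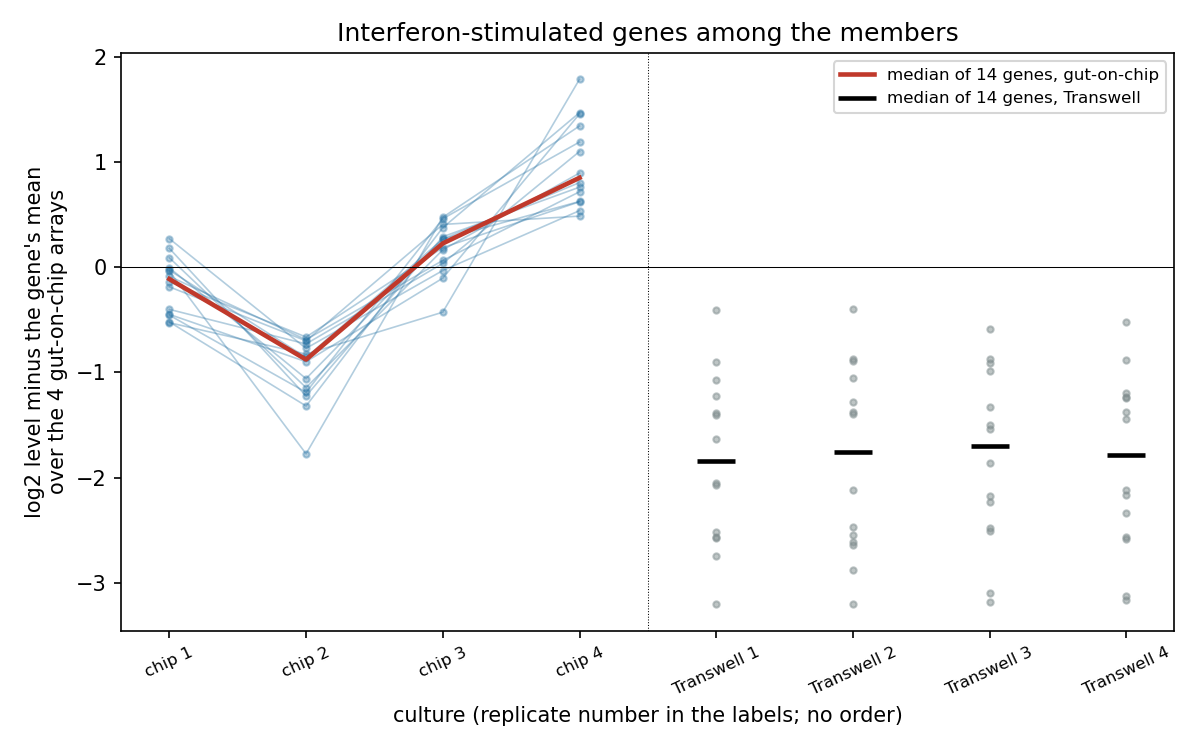
Log2 level minus the mean of the 4 gut-on-chip arrays for the 14 interferon-stimulated members, by array (blue, gut-on-chip, joined per gene; grey, Transwell), with medians in red and black. Replicate 4 is the highest and replicate 2 the lowest chip for all 14 genes, and most inserts lie below replicate 2.

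Interferon-stimulated genes that were no members had the same extremes in part. The 26 of them above level 5 had median deviations of -0.05, -0.30, 0.00 and 0.34, and 12 had replicate 4 highest with replicate 2 lowest, which 4.64% of all genes showed. DDX60, with a range as wide as that of the leading members, missed the limit on the Transwell SD, at 6.17, 4.58, 6.20 and 7.59 in the chips and an SD of 0.253 among the inserts. IFIT3 was at 6.63, 6.05, 7.28 and 7.90 in the chips and from 3.95 to 5.04 on the inserts. IFITM3 went another way, at 6.29, 6.78, 6.68 and 5.95, with replicate 4 lowest.

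SAMHD1 and NOS2 were also set apart by a high replicate 4. They lay outside the list and were chosen after their values were seen. SAMHD1, which breaks down deoxynucleotides, was at 7.24, 7.74, 7.75 and 8.81 in the chips and 7.61, 7.58, 7.60 and 7.53 on the inserts. NOS2, the inducible nitric oxide synthase, was at 6.07, 6.51, 6.18 and 7.26 and 4.01, 4.37, 4.21 and 4.38. Neither had replicate 2 lowest, unlike the 14 genes of the list.

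MHC class I antigen presentation, which interferon also raises, did not follow this order. Its 13 genes above level 5 had median deviations of 0.26, -0.18, -0.12 and -0.06, and 9 of them were highest in replicate 1, against 30.4% of the background. PSMB8, a subunit of the immunoproteasome and the only member of the list, was at 7.48, 6.33, 6.49 and 6.77 in the chips and 6.0, 5.97, 6.03 and 6.03 on the inserts. Replicate 1 was above the other chips and all chips were above the inserts. An eighth PSMB8 probe set that missed the limit on SD read 7.46, 6.38, 6.56 and 6.79, and may share signal with the copies.

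Enterocyte genes were among the members that were low in replicate 1. LCT, the lactase of the brush border, was at 4.91, 7.26, 6.83 and 7.34 in the chips and 7.58, 7.61, 7.74 and 7.62 on the inserts. CREB3L3, a transcription factor of lipid metabolism in gut and liver, was at 5.98, 7.82, 7.40 and 7.71 and 7.74, 7.79, 7.62 and 7.56. GUCA2A, or guanylin, which regulates salt and water secretion, was at 8.42, 9.61, 9.59 and 9.73 and 8.98, 8.93, 9.0 and 9.04. Replicate 1 was below every insert for all of these genes, while the other chips were below the inserts for LCT, overlapped with them for CREB3L3 and were above them for GUCA2A. CA12, a carbonic anhydrase of the cell surface, was at 6.71, 7.99, 7.85 and 7.62 in the chips and 7.89, 8.35, 8.05 and 8.18 on the inserts. BAIAP2L2, which shapes microvilli, was at 5.09, 6.42, 5.88 and 6.01 and 7.37, 7.51, 7.40 and 7.52. SLC6A20, a carrier of proline and other imino acids, was at 6.51, 7.60, 7.20 and 7.69 and 5.05, 5.32, 5.46 and 5.33. For SLC6A20 all chips were above all inserts, and for BAIAP2L2 all were below.

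MUCL3, a mucin-like gene, was at 4.15, 5.93, 6.33 and 6.40 in the chips and 6.32, 6.57, 6.31 and 6.39 on the inserts, with replicate 1 far below both the other chips and the inserts. It had 4 other probe sets, and each of them also had replicate 1 lowest and replicate 4 highest. Probe sets of the same gene may share signal, so these are no independent readings. HOXB9, a homeobox gene, was at 5.98, 7.20, 7.55 and 8.01 and 6.25, 6.19, 6.40 and 6.11, so that replicate 1 was just below the inserts and the other chips were above them. MMP1, a collagenase, was at 6.06, 7.69, 6.87 and 7.32 and 6.0, 6.09, 6.51 and 6.04, and ASNS, the asparagine synthetase, was at 5.67, 6.29, 6.55 and 6.85 and 6.43, 6.17, 6.11 and 5.84. The colonocyte list held 4 genes above level 5, all lowest in replicate 1. Its summed level was 10.58 in replicate 1 and 11.29 to 11.40 in the other chips, against 11.59 to 11.66 on the inserts.

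Some members low in replicate 1 belonged to no list and were named after their values were seen. FCER1G, the shared chain of Fc receptors of immune cells, was at 5.05, 6.36, 6.60 and 6.86 in the chips and 4.71, 4.70, 4.98 and 5.13 on the inserts. SLPI, a protease inhibitor of mucosal secretions, was at 7.24, 8.21, 8.02 and 8.49 and 6.08, 5.73, 5.86 and 6.01. ANXA13, an annexin of gut epithelium, was at 7.04, 8.71, 8.08 and 8.24 and 8.13, 8.05, 8.18 and 8.04. Replicate 1 was within the inserts for FCER1G, nearest to them for SLPI and below all of them for ANXA13. TMT1A, TLDC2, PLA2G12B and ANKRD40CL were below the inserts in every chip and lowest in replicate 1. TMT1A had the longest distance, at 4.02, 5.57, 5.25 and 5.47 in the chips and 8.10, 8.11, 8.08 and 8.12 on the inserts.

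Other enterocyte lists were mixed in replicate 1. The 9 absorptive enterocyte markers above level 5 had median deviations of -0.03, 0.16, 0.22 and -0.22, with 4 lowest in replicate 1, and the 14 brush border genes 0.00, 0.07, 0.03 and -0.09, with 6 lowest there. The 16 enterocyte identity factors had -0.15, 0.14, -0.03 and 0.03, with 9 lowest in replicate 1, and the 13 ion and water transport genes -0.22, 0.12, -0.01 and -0.03, with 6. In the background replicate 1 was lowest in 26.4%. ANPEP, the aminopeptidase N of the brush border, was the marker among the members, at 6.36, 7.48, 7.17 and 6.64 in the chips and 8.97, 9.17, 9.07 and 9.19 on the inserts, with replicates 2 and 3 high.

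Genes that were high in replicate 1 alone included channels and carriers. KCNJ16, an inward rectifier potassium channel subunit, was at 7.31, 5.40, 5.32 and 5.41 in the chips and 5.58, 5.40, 5.41 and 5.35 on the inserts. SLC10A1, a bile acid uptake carrier best known from liver, was at 7.34, 6.18, 5.48 and 5.36 and 6.10, 5.90, 6.46 and 6.12. SCNN1A, the alpha subunit of the epithelial sodium channel, was at 7.85, 6.84, 6.80 and 6.63 and 5.29, 5.83, 5.43 and 5.37. For KCNJ16 the other 3 chips lay at the insert level and replicate 1 was 1.94 above their mean. For SCNN1A all chips were above all inserts, and for SLC10A1 the inserts lay between replicate 1 and replicates 3 and 4, with replicate 2 among them. GSTA1, a glutathione transferase of detoxification, was at 6.56, 5.72, 5.53 and 4.96 in the chips and 9.05, 9.19, 9.21 and 9.29 on the inserts. CCDC183 was at 7.07, 6.05, 5.67 and 5.66 and 8.0, 8.17, 8.10 and 8.10. For both, replicate 1 was the chip nearest to the inserts, which were all higher.

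IGFBP7, COL12A1 and PLK2 were also high in replicate 1. IGFBP7, which binds insulin-like growth factors, was at 8.21, 7.14, 6.70 and 7.08 in the chips and 5.53, 5.53, 5.60 and 5.29 on the inserts. COL12A1, a collagen that decorates fibrils, was at 6.71, 5.45, 5.81 and 5.67 and 6.80, 6.85, 6.81 and 6.87. PLK2, a p53 target that is induced in arrested cells, was at 6.19, 5.34, 5.60 and 4.91 and 4.04, 3.95, 3.99 and 4.24. Replicate 1 approached the inserts for COL12A1 and moved away from them for IGFBP7 and PLK2. Of 15 p53 and growth arrest genes above level 5, 10 were highest in replicate 1, against 30.4% of the background, and their median deviations were 0.14, -0.04, -0.01 and -0.14. Of 28 matrix genes above level 5, 8 were highest in replicate 1 and 15 in replicate 2, which was highest in 24.6% of the background. Their median deviations were -0.02, 0.13, -0.08 and -0.06. The other p53 member, GADD45G, was at 6.22, 5.45, 5.98 and 5.10 and 4.42, 4.81, 4.40 and 4.44, with replicates 1 and 3 high. RNU11, an RNA of the minor spliceosome, was at 8.26, 6.85, 6.83 and 6.52 and 6.73, 6.74, 6.83 and 6.48.

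**Figure D4:**
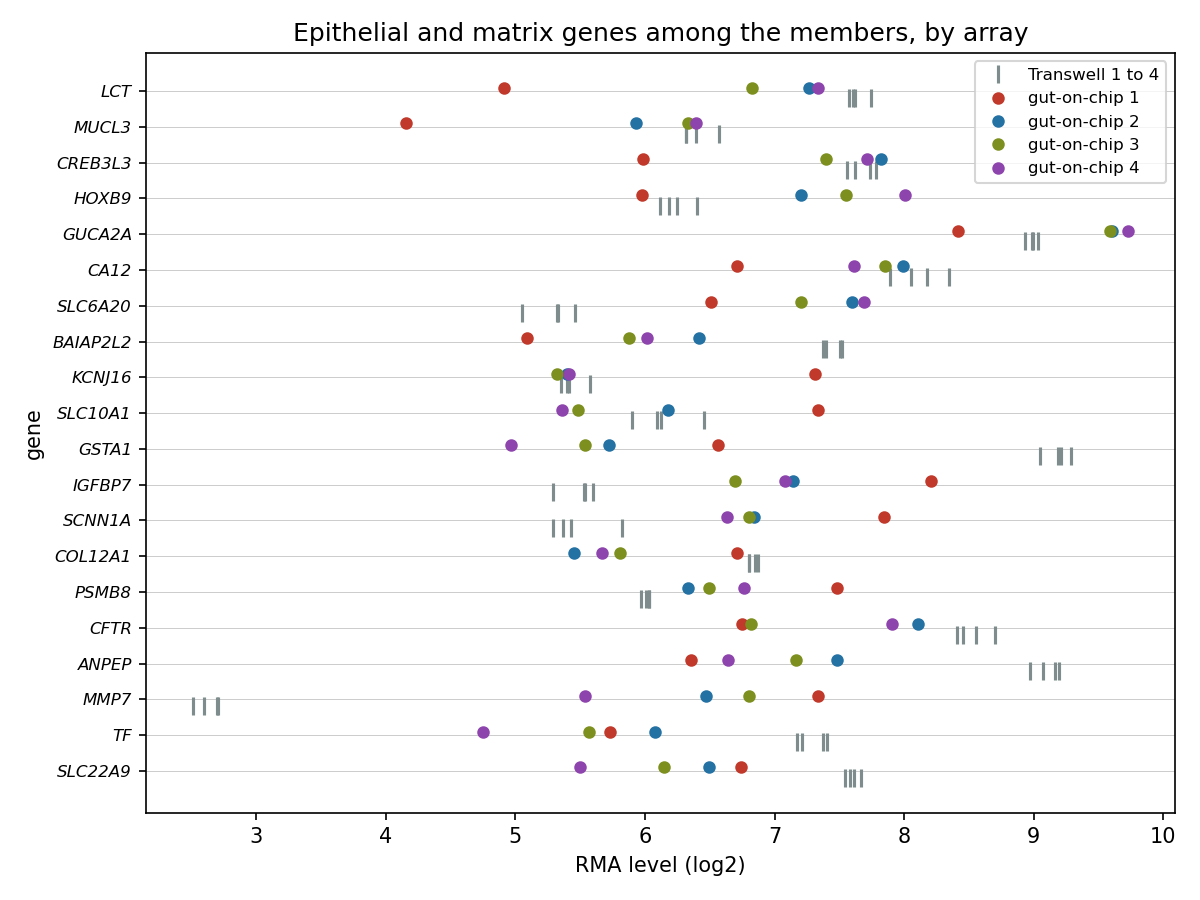
RMA levels (log2) of 20 epithelial and matrix members in each gut-on-chip array (coloured points) and Transwell array (grey ticks). Replicate 1 is the lowest chip in the upper 8 rows and the highest in the next 7, and the inserts lie close together in every row. The genes were picked and ordered by these patterns, and close inserts follow from the rule.

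The pair of replicates 2 and 4 was also high in genes outside cell division. CFTR, the chloride channel of the apical membrane, was at 6.75, 8.10, 6.82 and 7.91 in the chips and 8.70, 8.56, 8.41 and 8.46 on the inserts, so that both pairs were below the inserts. NOX1, the superoxide-producing oxidase of colon epithelium, was at 4.32, 5.82, 4.93 and 6.18 and 4.26, 3.87, 4.36 and 4.07, with replicate 1 within the inserts and the other chips above them. Among the 13 ion and water transport genes above level 5, CFTR, SCNN1A and CA12 were members, and each parted the chips in another way.

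Replicates 1 and 3 lay together above 2 and 4 in 7 members, or 4.32%, against 8.65% of the background. Replicate 2 alone was high in 6, or 3.70%, against 7.47%. Both shares were below the background. Apart from GADD45G the members with replicates 1 and 3 high were outside the lists and named after their values were seen. LGALS14, a galectin, was the brightest, at 9.82, 9.15, 10.12 and 8.76 in the chips and 11.01, 10.98, 10.94 and 10.80 on the inserts. C19orf38, EGFR-AS1, NSUN5, TATDN3 and RNF39 had ranges of 1.02 to 1.23 and their lowest chip was replicate 2. The other probe sets of RNF39 missed the limit on the Transwell SD, at 0.253 to 0.571. They also had replicate 2 lowest, but replicate 1 highest where the member had replicate 3. EGFR-AS1 is antisense to EGFR. Besides the mitotic genes CENPF and KIF4A, replicate 2 was alone high for DEPDC1, PCID2, AADAC and HSD17B2, of which DEPDC1, AADAC and HSD17B2 were named after their values were seen. HSD17B2, which inactivates sex steroids, was at 5.80, 7.10, 6.5 and 6.31 in the chips and 9.79, 9.75, 9.82 and 9.84 on the inserts. AADAC, an esterase of liver and gut, was at 4.76, 6.14, 5.20 and 5.39 and 5.91, 5.82, 5.64 and 5.98, with Transwell levels between replicate 2 and the other chips.

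Members that set replicate 4 low were 5 genes, of which MS4A10 and RNF186 were outside the lists and named after their values were seen. MMP7, or matrilysin, was at 7.33, 6.47, 6.80 and 5.54 in the chips and 2.70, 2.70, 2.59 and 2.51 on the inserts. TF, the iron carrier transferrin, was at 5.73, 6.07, 5.56 and 4.75 and 7.21, 7.17, 7.38 and 7.40. SLC22A9, an organic anion carrier, was at 6.74, 6.49, 6.14 and 5.5 and 7.54, 7.67, 7.58 and 7.61. Replicate 4 was the chip nearest to the inserts for MMP7 and the farthest from them for TF and SLC22A9. On the inserts MMP7 lay near the array medians, which were 2.46 to 2.48 in the chips, so its small SD there does not show steady expression. MS4A10 was at 6.96, 6.80, 7.38 and 5.77 in the chips and 10.81, 10.91, 10.98 and 10.85 on the inserts, and RNF186, a ubiquitin ligase of gut epithelium, was at 6.41, 6.27, 7.14 and 5.52 and 8.15, 8.22, 8.18 and 8.05. CP, the copper oxidase ceruloplasmin, alone had replicates 1 and 2 high, at 7.82, 8.04, 7.14 and 6.93 and 8.86, 9.02, 8.84 and 8.87. Of 14 acute phase and complement genes above level 5, 9 were lowest in replicate 4, against 23.4% of the background.

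Replicate 3 was set apart by few members, and small nucleolar RNAs were among them. SNORD115-27 was at 5.49, 4.71, 6.48 and 4.88 in the chips and 6.51, 6.5, 6.55 and 6.90 on the inserts. SNORD116-30 was at 4.48, 4.60, 6.15 and 5.31 and 5.83, 6.12, 6.12 and 6.08. SCARNA21, a Cajal body RNA that guides the modification of spliceosomal RNA, was at 6.33, 6.16, 7.35 and 6.29 and 6.31, 6.46, 6.45 and 6.59. All were highest in replicate 3, as were 68 of the 99 small nucleolar and Cajal body RNAs above level 5, against 26.1% of the background. Median deviations of these RNAs were -0.03, -0.13, 0.28 and -0.13. SNORD116-30 met the limit on level only through replicate 3, since the other chips had a mean of 4.80. SNORD116-1 and SNORD115-25 were lowest in replicate 2 and highest in replicate 3. The copies of these families are near identical, so which copy gave a signal is uncertain. BHLHE41, a repressor of the circadian clock, was low in replicate 2 without belonging to a list, at 6.59, 4.28, 6.18 and 5.64 in the chips and 4.79, 4.73, 5.0 and 4.92 on the inserts. The 3 members with replicate 3 alone low were PTGS2, SYNE2 and HELLS, the last 2 named after their values were seen. PTGS2, the inducible cyclooxygenase, was at 5.57, 5.38, 4.51 and 5.57 and 2.75, 2.88, 2.72 and 2.72. These insert levels were near the array medians, which were 2.46 to 2.48 in the chips, so their small SD does not show steady expression.

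Many lists of housekeeping and epithelial genes showed small median differences between chips. Median deviations were within 0.08 of 0 in every chip for glycolysis, cytosolic ribosomal proteins, ribosome biogenesis and tight junctions, and none of these lists held a member. Oxidative phosphorylation reached 0.12 in replicate 3, and cholesterol synthesis and uptake ranged from -0.19 in replicate 1 to 0.12 in replicate 4, again without members. Small shifts could share a direction. Of 40 cytosolic ribosomal protein genes above level 5, 25 were highest in replicate 1, against 30.4% of the background. Of 56 oxidative phosphorylation genes, 35 were highest in replicate 3, against 26.1%. The 5 metallothioneins above level 5 differed more, with median deviations of 0.07, -0.31, 0.37 and 0.02. Of these 5, 4 were lowest in replicate 2 and 4 highest in replicate 3. Their median SD was 0.34 among chips and 0.33 among inserts. Of the 156 member genes, 82 were in a pathway list and 74 in none.

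**Figure D5:**
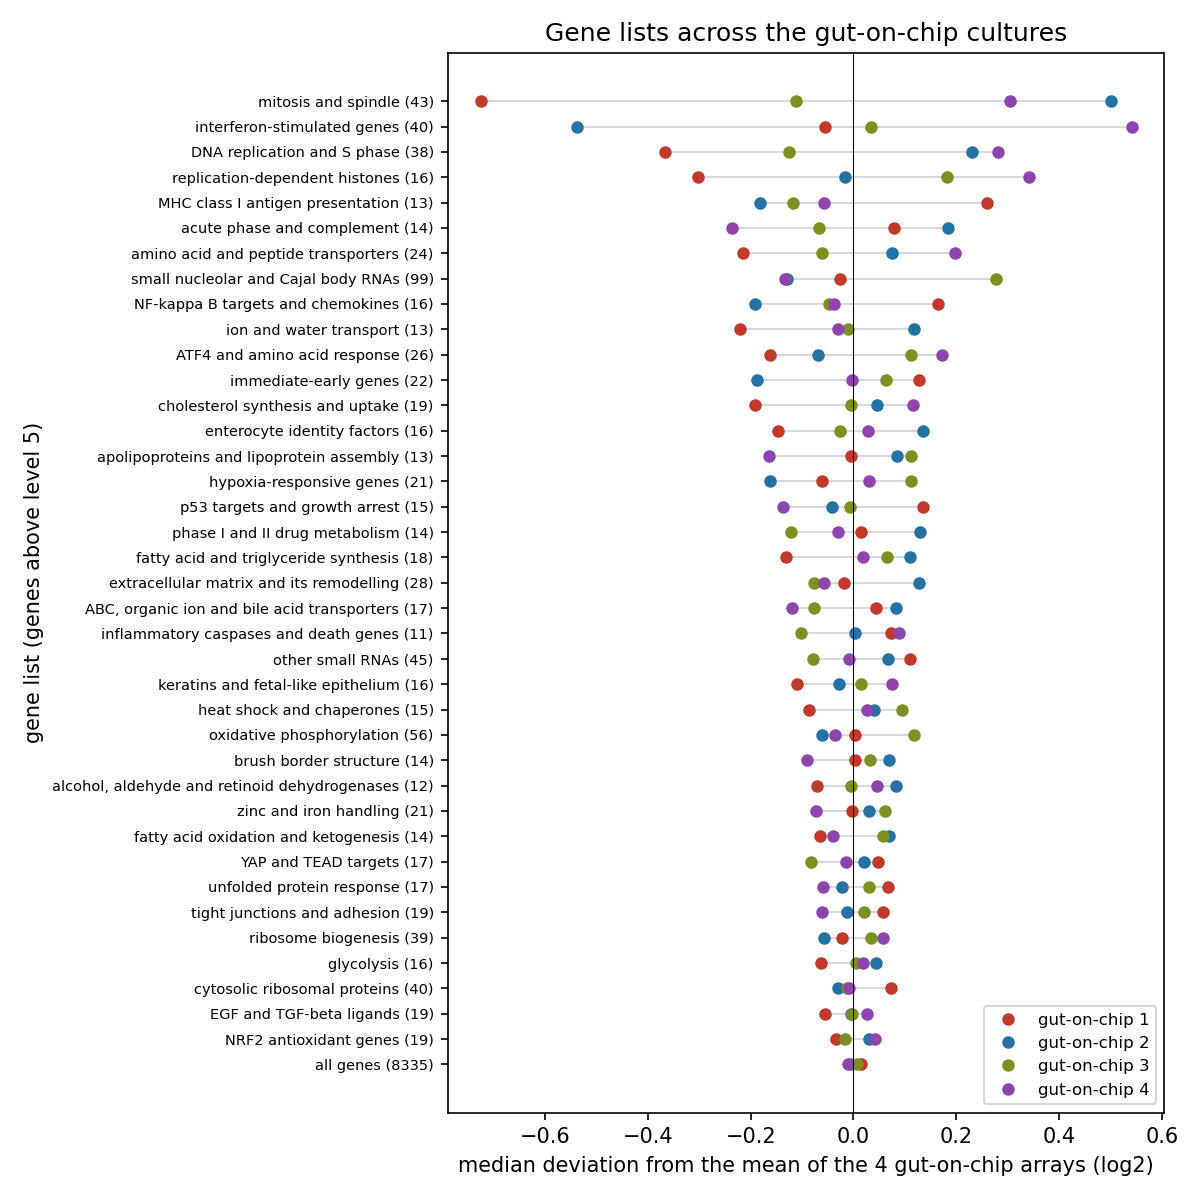
Median deviation (log2) of each gut-on-chip array from the mean of the 4, over the genes above level 5 of each pathway list with at least 10 such genes (number in brackets) and over all genes. Mitosis and spindle genes spread from -0.72 in replicate 1 to 0.50 in replicate 2, interferon-stimulated genes from -0.54 in replicate 2 to 0.54 in replicate 4, and the medians of all genes are -0.01 to 0.01 once rounded.

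The chips overlapped with the inserts in 96 of the 162 members. All 4 chips were above all 4 inserts in 43 members, among them the 7 PSMB8 copies, whereas 34.7% of the background was above. They were below all inserts in 23, whereas 21.1% of the background was below. Among the 61 members with replicate 1 alone low the chips and inserts overlapped in 48, and among the 30 with replicates 2 and 4 high in 27. In these 30 the Transwell mean was nearer to the low pair in 26. It was nearer to the low side of the gap in 116 of the 162 members and in 5175 of the 8727 probe sets of the background. Wide chip ranges make an overlap more likely, so these counts follow in part from the rule.

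The outcome of the rule turned on replicate 1. Without it, the same limits applied to the other 3 chips took 96 probe sets, of which 54 were among the 162, and 4 mitosis and spindle genes in place of 31. Without replicate 2, 3 or 4 the mitosis genes numbered 27, 34 and 33. Interferon-stimulated genes numbered 16, 8, 15 and 8 without replicates 1, 2, 3 and 4.

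Members near the limits were close to probe sets that missed them. ASNS, GPSM2 and NCAPH had SDs among the chips of 0.502, and KIF15, RNU4ATAC and CDC7 just missed at 0.4997, 0.498 and 0.497. SDs among the inserts were 0.2497 for SNORD115-25 and 0.240 for ASNS and MCM10 on one side, and 0.251, 0.253 and 0.253 for FAM111B, DDX60 and a probe set of RNF39 on the other. Mean levels were 5.003, 5.08 and 5.10 for IFI27, TMT1A and OAS2 inside, and 4.98, 4.98 and 4.97 for DNAJC6, SLC12A3 and another MUCL3 probe set outside. For PCID2, a second probe set at a mean level of 6.48 had an SD of 0.13 among the chips against 0.56 for the member, so this gene's chip difference was read by one of its probe sets only.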

How the data were processed

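Total RNA of 8 Caco-2 cultures was hybridised to Affymetrix Human Gene 2.1 ST arrays, 1 culture per array. The deposited values are RMA estimates on the log2 scale: the authors corrected background, normalized quantiles between arrays and summarised probes per probe set. The RMA version was not stated in any source used here. Quantile normalization removes differences in overall signal between arrays. The deposited table lists 53617 probe sets under identifiers of the array's maker, which is another summary than the custom one of the study's methods. The labels name the RNeasy Mini kit and the methods another kit of the same maker. The labels give no scan date or batch, the files hold no detection calls, and the number of arrays limits the precision.

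Probe sets were paired with symbols through the platform annotation: 23866 had 1 symbol, 1852 several and 27899 none, and only the first kind was used. Of these, 22560 matched a current gene in the RefSeq table of GRCh38.p14. Levels, SDs, ranges and gaps were computed with Python 3.11.15 and pandas 2.3.3 as deposited, without further scaling. Probe sets were not filtered beyond the rule. The rule and its assignment of chips were tested on simulated data. The planted shifts were larger than the members' median range of 1.31, in probe sets brighter than their median level of 6.58. Members with smaller gaps or lower levels were thus not covered. A split was assigned by the largest gap of the 4 sorted chip levels. Lists were described by their counts and by the median, over genes above level 5, of each chip's deviation from the mean of the 4. No test of the 2 systems or of the chips was made. The members, the lists and the choices of settings were made with earlier results of these data known.

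Genes were named by a rule: the 20 members with the largest SD, the 8 with the widest range in each split of at least 10 members, members in a list, the 3 nearest to each limit on either side and members with a second probe set, of which not all are printed. Genes outside it are marked as named after their values were seen. Alternatives were another scaling, other limits, range in place of SD, 1 probe set per gene, another assignment of chips and each array left out.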

Additional observations from a re-analysis of the deposited data

Results flagged for a closer look

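Of 86 members described by name, 5 had a gut-on-chip array whose gap to the nearest other chip, as a share of the range of the 4, was above Dixon's 95% critical value for 4 samples, which serves here only to pick genes for a closer look and is no test, because the spread among chips and among inserts chose the members. These were KCNJ16 (0.954) and SCNN1A (0.830), with replicate 1 high, GUCA2A (0.896), with replicate 1 low, IFI27 (0.847), with replicate 4 high, and SCARNA21 (0.860), with replicate 3 high. In groups not chosen by their spread, chance alone flags about 1 in 20 groups.

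On the inserts, 7 of the 86 were above the same value within small ranges. The high array was Transwell replicate 2 for H1-5 (0.842), CP (0.831) and GADD45G (0.891), Transwell replicate 3 for HERC5 (0.843) and MMP1 (0.830), and Transwell replicate 4 for SNORD115-27 (0.874). For SNORD116-30 (0.866) Transwell replicate 1 was low.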

How the results depend on the processing

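The number of members was 162 and kept within 1.5 times of this under another quantile normalization, a shift to equal medians, a level above 6, an SD among inserts below 0.5 or without limit, range in place of SD, and 1 probe set per gene. Of the 162, 159 were shared after quantile normalization and 160 after the shift of medians, and the SD of the named members moved by at most 0.02. A level above 4 gave 264 members, with 35 parting replicate 2, 23 parting replicate 3 and 78 parting pairs, in place of 18, 8 and 43. An SD of 0.75 or more among chips gave 30, with 12, 7, 2 and 5 parting replicates 1 to 4 and 4 parting pairs. A level above 6 left 10 for replicate 2 and 2 for replicate 3. The limits of 0.5 or none on the inserts each gave 19 for replicate 3. Range gave 27 for pairs, and the chip farthest from the mean gave 31 for replicate 2. Leaving out 1 array at a time, members numbered 96 (without gut-on-chip replicate 1) to 250 (without gut-on-chip replicate 3), those parting replicate 1 80 to 203, replicate 2 18 to 82, replicate 3 9 to 51, replicate 4 12 to 67 and pairs 44 to 50. With 3 chips no pair can part, so counts of single chips rise by construction. In all, 72 of 98 recomputed counts were within 1.5 times of the reported one. No paired analysis was possible because the results come from no test. Same-numbered chips and inserts had correlations of their deviations of -0.04, -0.06, 0.07 and -0.09 across probe sets, so the numbers were not taken as pairs. Levels carry no detection call, so how near to background the dimmest members lie is unknown.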

Other observations

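Probe sets that the annotation pairs with several symbols or with none also varied between chips. Of 4009 above level 5 in the gut-on-chip, 148 met the same limits on spread, or 3.69%, of which 33 had several symbols and 115 none. Replicate 1 was alone low in 22 and alone high in 12, and replicates 2 and 4 were high in 11.

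The 23 cholesterol synthesis and uptake genes measured included 19 above level 5, of which 11 were lowest in replicate 1 and 12 highest in replicate 4, with no member among them. Of 26 genes of the ATF4 and amino acid response above level 5, 13 were lowest in replicate 1 and 12 in replicate 2, with median deviations of -0.16, -0.07, 0.11 and 0.17 and ASNS as the only member. Of 24 amino acid and peptide transporters above level 5, 12 were lowest in replicate 1 and 13 highest in replicate 4, with median deviations of -0.22, 0.07, -0.06 and 0.20 and SLC6A20 as the only member. Of 16 NF-kappa B targets and chemokines above level 5, 10 were highest in replicate 1 and 9 lowest in replicate 2. Of all probe sets above level 5, replicate 1 was lowest in 26.4% and highest in 30.4%, replicate 2 was lowest in 27.9% and replicate 4 highest in 18.8%.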
